A study of Mus musculus with 6 samples.

Results

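Nuclear receptors switch genes on and off through coregulators, and 9 genes for such proteins, *Ppargc1a*, *Ppargc1b*, *Ncoa1*, *Ncoa2*, *Ncoa3*, *Med1*, *Ncor1*, *Hdac3* and *Nrip1*, are described here in mouse liver. They were taken by gene name from 21528 gene identifiers listed in any of the 6 libraries, and each matched 1 identifier. RNA-Seq libraries were made from livers of 3 WT mice and of 3 mice homozygous for TRIM24 C52/55A, 1 library per mouse. The labels give the strain as C57BL/6, and the substitution was made in C57Bl/6J mice. All of the mice were 5 months old and had been fed a diet with 60% fat (HFD) for 3 months, so no library shows the liver on another diet. The C52/55A allele of *Trim24* was made by genome editing of its own locus and changes a pair of cysteines to alanine in the RING domain, which gives the protein its ubiquitin ligase activity. Every tissue carried it, and not the liver alone. The deposited values are FPKM, fragments per kilobase of transcript per 1000000 mapped fragments, which correct a gene's fragment count for its length and for the depth of its library. One library, TRIM24 C52/55A replicate 2, also held adipocyte transcripts: *Adipoq*, *Plin1*, *Lep* and *Retn*, genes of fat cells, had 4.55, 3.32, 3.98 and 1.59 FPKM there and at most 0.127 FPKM in the other 5 libraries. The other 2 of the 6 adipocyte markers listed did not single out this library in the same way. *Cfd* had 3.10 to 8.62 FPKM in WT and 0.112 to 2.54 FPKM in TRIM24 C52/55A liver. *Adrb3* had 1.99 to 2.17 FPKM in WT and 7.81 to 12.4 FPKM in TRIM24 C52/55A liver. Within the TRIM24 C52/55A group both were highest in replicate 2.

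Coactivators are recruited by a ligand-bound receptor and open chromatin or bring in RNA polymerase II, whereas corepressors bring in enzymes such as histone deacetylases that keep genes low. NCOR1 is held by receptors that lack an activating ligand, and RIP140 by receptors that have bound one. In liver, the PGC-1 coactivators work with PPARα, ERRα and HNF4α on fatty acid oxidation, mitochondrial genes and gluconeogenesis, the steroid receptor coactivators (SRC) and the Mediator subunit MED1 assist PPARγ in lipid storage, and NCOR1 with the deacetylase HDAC3 restrains lipogenic genes. TRIM24 is itself counted among the coregulators of nuclear receptors. Whether the mRNA levels of these coregulators differed between the genotypes is the question of the comparison below.

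None of the 9 coregulator genes passed the test between the genotypes, and their mRNA levels lay close together in WT and TRIM24 C52/55A liver. The test was limma on log2(FPKM + 1) over the 12225 genes that averaged 0.5 FPKM or more, with Benjamini-Hochberg adjustment over all of them and a threshold of 0.05 for the adjusted p. It called 0 of the 9 coregulators, beside 7.72% of all genes tested. At an unadjusted p under 0.05 it counted 1 of the 9, *Ncoa3*, beside 23.6% of all genes. The FPKM of the 3 WT and the 3 TRIM24 C52/55A libraries did not overlap for 4 of the 9, beside 28.9% of all genes. Of those 4, *Ncoa3* was higher in TRIM24 C52/55A liver, a direction seen in 6.31% of all genes, and *Ncoa1*, *Hdac3* and *Nrip1* were lower, a direction seen in 22.5%. For *Hdac3* the sign of the difference depended on the scaling of the libraries. Each of these counts lay within 2 genes of what the share of all genes would give among 9. The median log2 fold change was -0.06 for the 9 coregulators and -0.07 for all genes, and the whole set ran from -0.13 to 0.24.

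How small a difference could be seen is given by the 95% interval of each log2 fold change. The interval lay within 0.5 of 0 for 8 of the 9 coregulators, beside 66.7% of all genes. *Ppargc1a* was the exception, with a lower bound of -0.52. On log2(FPKM + 1) the intervals of low genes are narrowed by the added 1. With a pseudocount of 0.1 the standard errors were 0.29 for *Ppargc1b*, 0.20 for *Nrip1* and 0.32 for *Ppargc1a*, against 0.12, 0.11 and 0.18 as reported. By the standard error that limma gave it, *Hdac3* would have been called from a change of 1.24-fold on the log2(FPKM + 1) scale. *Ppargc1a* would have been called only from 1.64-fold. For *Ppargc1b* the limit was 1.39-fold, which on this scale stands for a larger change in the FPKM of so low a gene. Changes smaller than these were not detectable with 3 mice a group, and an adjusted p above the threshold does not show that levels were equal.

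**Figure D1:**
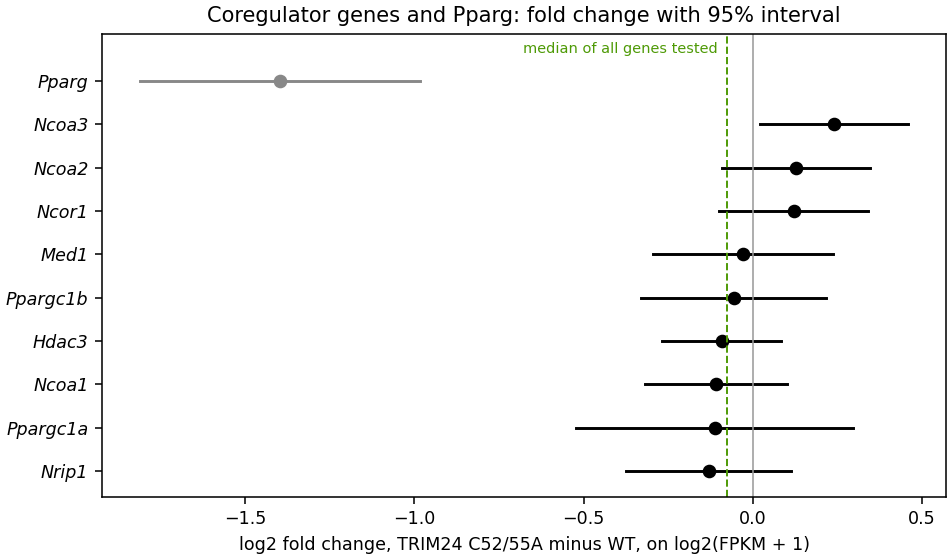
The horizontal axis is the log2 fold change, TRIM24 C52/55A minus WT, on log2(FPKM + 1), with the 9 coregulators in black and *Pparg* in grey. Points are limma estimates, bars are 95% intervals, the dashed line is the median of all genes tested, and of the 9 only the bar of *Ncoa3* lies off 0, while that of *Pparg* lies below -0.98.

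By mean FPKM over the 6 libraries the coregulators spanned a 29.7-fold range. *Ncor1* (16.1) and *Hdac3* (15.7) were the most abundant, at the 74.3 and 73.8 percentiles of all genes tested, and their ranges overlapped, with *Ncor1* above *Hdac3* in 4 of 6 libraries. Next stood *Ncoa3* (4.47), *Med1* (3.93) and *Ncoa2* (3.39), whose ranges also overlapped from one to the next. *Ncoa1* (2.05) lay below *Ncoa2* and above *Ppargc1a* in every library. *Ppargc1a* (1.12) and *Nrip1* (1.04) overlapped, and *Ppargc1b* (0.543) was the lowest of the 9, just above the minimum of the test and at the 1.34 percentile. The most abundant coregulators were therefore a corepressor and its deacetylase, and the PGC-1 pair and *Nrip1* were the scarcest. These levels are per length, but the transcript length behind each FPKM is not given in the sources used here.

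**Figure D2:**
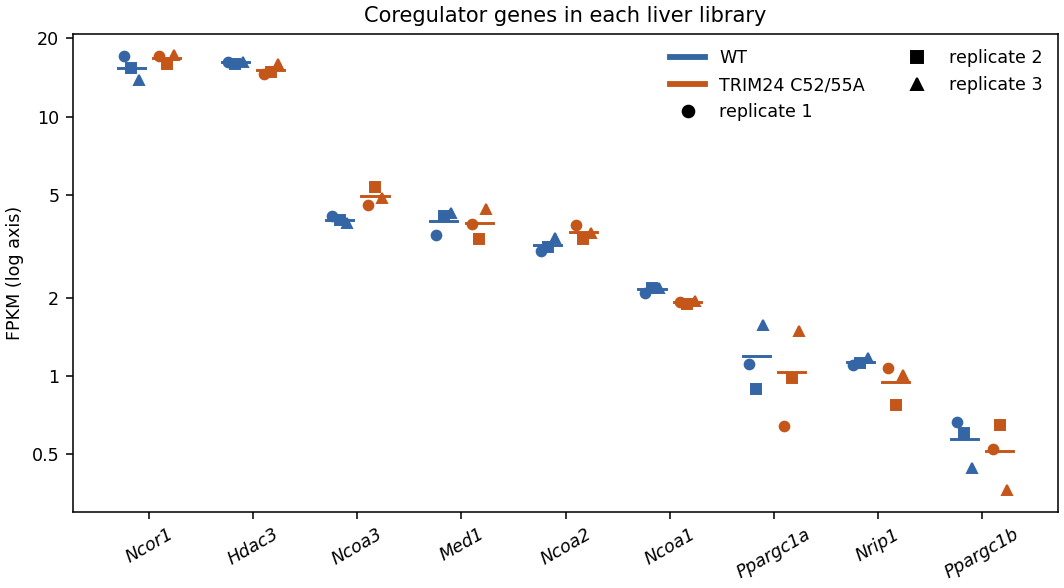
FPKM on a log axis for each coregulator in order of its mean, with WT in blue, TRIM24 C52/55A in orange, symbols for replicates 1 to 3 and bars for group means. The 2 groups sit on each other or side by side for every gene, and the separate groups of *Ncoa3* and *Ncoa1* are 3.88 to 4.16 against 4.57 to 5.36 and 2.10 to 2.19 against 1.90 to 1.95 FPKM.

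The PGC-1 coactivators came first by role. *Ppargc1a* (ENSMUSG00000029167, GRCm38 chr5:51454250-51567726) encodes PGC-1α, which drives mitochondrial biogenesis, fatty acid oxidation and gluconeogenesis and is induced in the liver by fasting. Here and below the libraries are given in the order of replicates 1 to 3. Equal replicate numbers mark different mice, and the libraries were not paired. Its level was 1.12, 0.894 and 1.57 FPKM in WT and 0.642, 0.988 and 1.5 FPKM in TRIM24 C52/55A liver. The third library of each genotype was the highest and the groups overlapped widely. The means were 1.19 ± 0.344 and 1.04 ± 0.432 FPKM (SD, n = 3 each), with a log2 fold change of -0.11 (SE 0.18, 95% interval -0.52 to 0.30, limma with Benjamini-Hochberg adjusted p = 0.761). That difference was smaller than the spread among mice of 1 genotype, and its sign turned when single libraries were left out, to 0.0071 when WT replicate 3 was omitted and to 0.034 when TRIM24 C52/55A replicate 1 was. *Ppargc1a* varied the most of the 9 between mice, by 2.44-fold from the lowest to the highest library, and only 10.4% of all genes had a larger standard error.

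*Ppargc1b* (ENSMUSG00000033871, GRCm38 chr18:61298136-61400431) encodes PGC-1β, a relative that also serves lipogenesis through SREBP. It had 0.669, 0.604 and 0.445 FPKM in WT and 0.527, 0.649 and 0.365 FPKM in TRIM24 C52/55A liver. The third library of each genotype was here the lowest, and the groups overlapped. The log2 fold change was -0.06 (SE 0.12, 95% interval -0.33 to 0.22, limma with Benjamini-Hochberg adjusted p = 0.825), and it was 0.016 without TRIM24 C52/55A replicate 3. At 3.66 kb, the length of its longest coding transcript in GENCODE M21, these values stand for about 20.9 to 39.7 fragments a library, the fewest of the 9, so that counting error is part of the spread.

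The opposite order of the third libraries for these relatives showed in their ratio within each library. The third libraries of the genotypes come from different mice, and nothing is read from what they share. PGC-1α mRNA was 1.68, 1.48 and 3.53 times PGC-1β mRNA in the WT libraries and 1.22, 1.52 and 4.11 times in the TRIM24 C52/55A libraries. The ratio was highest in the third library of both genotypes, and its log2 difference between the genotypes was -0.07 (SE 0.67, exact permutation test, two-sided p = 0.9, smallest possible p 0.1). With 1 library left out it lay anywhere from -0.60 (without TRIM24 C52/55A replicate 3) to 0.32 (without WT replicate 3), and was also positive without TRIM24 C52/55A replicate 1 (0.28) or 2 (0.12). *Alas1*, the first enzyme of haem synthesis and a PGC-1α target, was chosen after its values were seen. It had 168, 174 and 277 FPKM in WT and 63.6, 22.3 and 185 FPKM in TRIM24 C52/55A liver, also highest in the third library of each genotype. The gluconeogenic target *Pck1*, the gene of phosphoenolpyruvate carboxykinase and likewise chosen after its values were seen, did not follow that order, with 832, 837 and 964 FPKM in WT and 727, 1145 and 486 FPKM in TRIM24 C52/55A liver.

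Of the 3 SRC coactivators, histone acetyltransferase-recruiting proteins that bind the ligand-bound receptor first, *Ncoa3* showed the largest difference of all 9 coregulators. *Ncoa3* (ENSMUSG00000027678, listed at GRCm38 chr2:165992636-166155663) encodes SRC-3. It had 4.16, 3.99 and 3.88 FPKM in WT and 4.57, 5.36 and 4.85 FPKM in TRIM24 C52/55A liver. Every TRIM24 C52/55A library stood above every WT library. The means were 4.01 ± 0.139 and 4.93 ± 0.405 FPKM (SD, n = 3 each), a ratio of 1.23. The log2 fold change was 0.24 (SE 0.09, 95% interval 0.02 to 0.46), with an unadjusted p of 0.0342 and an adjusted p of 0.172 (limma, Benjamini-Hochberg). The difference therefore did not pass the threshold over all genes. Its sign held in all 15 other ways of processing, between 0.19 and 0.32, with adjusted p-values from 0.0813 to 0.394. The exact permutation test gave a two-sided p of 0.1, the smallest that 3 against 3 can give.

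*Ncoa3* was highest in TRIM24 C52/55A replicate 2, the library with adipocyte transcripts. Without this library the log2 fold change of *Ncoa3* was 0.19 (limma, Benjamini-Hochberg adjusted p = 0.232). In RNA of whole tissue, fewer cells of a type and less RNA per cell cannot be told apart.

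*Ncoa2* (ENSMUSG00000005886, GRCm38 chr1:13139105-13374083) encodes SRC-2, which has been linked to fat storage and to glucose release by the liver. It had 3.03, 3.14 and 3.42 FPKM in WT and 3.82, 3.39 and 3.55 FPKM in TRIM24 C52/55A liver. The groups overlapped by 1 pair, since the highest WT library stood just above the lowest TRIM24 C52/55A library. The log2 fold change was 0.13 (SE 0.10, 95% interval -0.09 to 0.35, limma with Benjamini-Hochberg adjusted p = 0.475), and it was 0.21 and 0.086 under median-of-ratios and TPM scaling.

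*Ncoa1* (ENSMUSG00000020647, GRCm38 chr12:4247363-4477182) encodes SRC-1. Its levels were 2.10, 2.19 and 2.19 FPKM in WT and 1.94, 1.90 and 1.95 FPKM in TRIM24 C52/55A liver. All WT libraries stood above all TRIM24 C52/55A libraries, and both groups were tight, at 2.16 ± 0.0512 and 1.93 ± 0.0301 FPKM (SD, n = 3 each). The log2 fold change was nevertheless small, at -0.11 (SE 0.09, 95% interval -0.32 to 0.10, limma with Benjamini-Hochberg adjusted p = 0.534), near the median of all genes, and it was -0.040, -0.051 and -0.17 under median-of-ratios, quantile and TPM scaling. The limma error is in part borrowed from other genes of the same abundance, and 81.6% of all genes had a larger one.

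The SRC genes were also set against each other within each library, where depth and any other scaling of a whole library cancel out. *Ncoa1* stood at 0.506, 0.548 and 0.565 times *Ncoa3* in the WT libraries and at 0.425, 0.354 and 0.403 times in the TRIM24 C52/55A libraries. The groups did not overlap, and the log2 ratio differed by -0.46 (SE 0.09). *Ncoa1* stood at 0.693, 0.697 and 0.642 times *Ncoa2* in the WT libraries and at 0.509, 0.560 and 0.550 times in the TRIM24 C52/55A libraries. Here, too, the groups did not overlap, and the log2 ratio differed by -0.33 (SE 0.06). The ratio of *Ncoa2* to *Ncoa3* overlapped between the groups and its log2 value differed by -0.13 (SE 0.14, exact permutation test, two-sided p = 0.5), or by -0.055 without WT replicate 3, and by -0.23 or -0.025 when replicate 1 or 2 of the TRIM24 C52/55A group was omitted. These ratios combine the single differences of *Ncoa1*, *Ncoa2* and *Ncoa3*, of which none was called.

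In all, 7 such ratios were compared, and the groups did not overlap in 5 of them, beside 26.6% of the 74036196 pairs of tested genes that were above 0 in every library. The ratios share genes and restate differences of the single genes, so that the 5 are not separate observations and nothing is read from their share. Each of the 5 had a two-sided p of 0.1 in the exact permutation test, the smallest possible, and 0.14 after Benjamini-Hochberg adjustment over the 7. The other 3 of the 5 involved *Ncor1*: its log2 ratio to *Hdac3* was higher by 0.23 (SE 0.10) in TRIM24 C52/55A liver (0.14 without WT replicate 3), its log2 ratio to *Nrip1* higher by 0.39 (SE 0.16), and the log2 ratio of *Ncoa1* to *Ncor1* differed by -0.29 (SE 0.11).

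**Figure D3:**
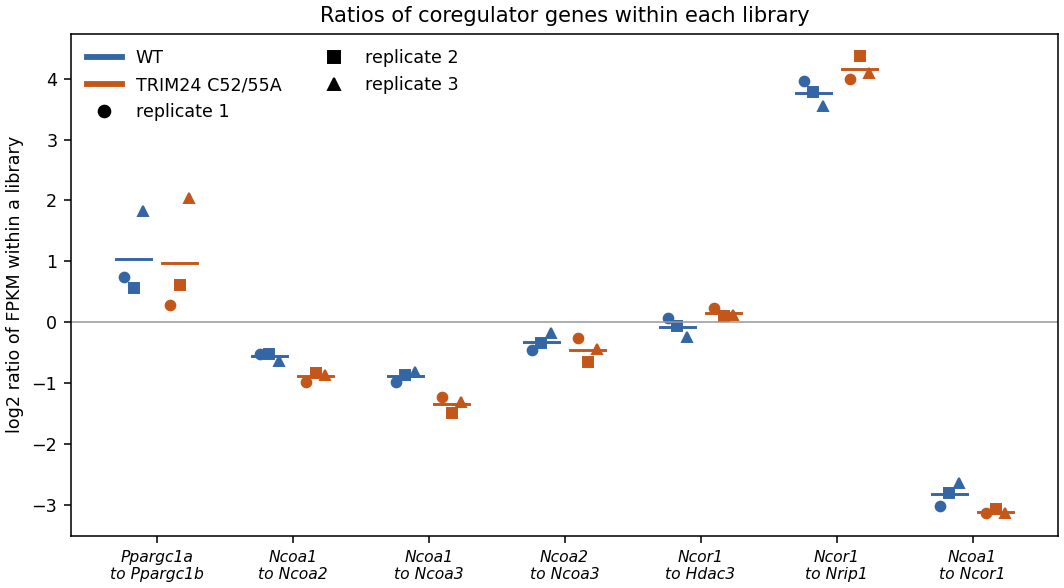
The vertical axis is the log2 ratio of the FPKM of 2 coregulators in the same library, with WT in blue, TRIM24 C52/55A in orange, symbols for replicates and bars for group means. The groups stand apart for *Ncoa1* to *Ncoa2* and *Ncoa1* to *Ncoa3*, by -0.33 and -0.46. They lie on each other for *Ppargc1a* to *Ppargc1b*, whose highest point in either group is replicate 3, a different mouse in each.

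*Med1* (ENSMUSG00000018160, GRCm38 chr11:98152154-98193293) encodes the Mediator subunit that contacts nuclear receptors and through which PPARγ acts in fatty liver. It had 3.52, 4.14 and 4.25 FPKM in WT and 3.86, 3.38 and 4.4 FPKM in TRIM24 C52/55A liver. Both the lowest and the highest library belonged to the TRIM24 C52/55A group, so that the WT values lay within its range. The means were 3.97 ± 0.397 and 3.88 ± 0.514 FPKM (SD, n = 3 each), with a log2 fold change of -0.03 (SE 0.12, 95% interval -0.29 to 0.24, limma with Benjamini-Hochberg adjusted p = 0.917) that became 0.054 and 0.035 under median-of-ratios and quantile scaling, -0.085 under TPM scaling and 0.048 without TRIM24 C52/55A replicate 2, the library with adipocyte transcripts.

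Among the corepressors, *Ncor1* (ENSMUSG00000018501, listed at GRCm38 chr11:62281473-62514417) encodes the scaffold that binds receptors without an activating ligand. It had 17.1, 15.4 and 13.8 FPKM in WT and 17.1, 16.0 and 17.2 FPKM in TRIM24 C52/55A liver. The first WT library was as high as the TRIM24 C52/55A libraries, and the groups overlapped. The means were 15.4 ± 1.64 and 16.8 ± 0.672 FPKM (SD, n = 3 each), and the log2 fold change was 0.12 (SE 0.10, 95% interval -0.10 to 0.34, limma with Benjamini-Hochberg adjusted p = 0.506). It was 0.048 without WT replicate 3 and 0.19 without WT replicate 1, and 0.062, 0.22 and 0.23 under TPM, median-of-ratios and quantile scaling.

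*Hdac3* (ENSMUSG00000024454, GRCm38 chr18:37935844-37954988) encodes the histone deacetylase that NCOR1 activates. It had 16.3, 16.0 and 16.3 FPKM in WT and 14.6, 14.9 and 15.9 FPKM in TRIM24 C52/55A liver. The WT libraries were nearly equal and all stood above the TRIM24 C52/55A libraries, the third of which came close to them. The log2 fold change was -0.09 (SE 0.08, 95% interval -0.27 to 0.08, limma with Benjamini-Hochberg adjusted p = 0.531), near the median of all genes, and it was 0.0047 and 0.027 under median-of-ratios and quantile scaling, which moved that median to 0.01, and -0.15 under TPM scaling, which moved it to -0.13. *Hdac3* was the steadiest of the 9, with 1.12-fold between its lowest and highest library, and 96.3% of all genes had a larger standard error.

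*Nrip1* (ENSMUSG00000048490, GRCm38 chr16:76287400-76373827) encodes RIP140, a ligand-dependent corepressor that holds back oxidative genes and works against PGC-1α. It had 1.10, 1.12 and 1.18 FPKM in WT and 1.07, 0.776 and 1.01 FPKM in TRIM24 C52/55A liver. All WT libraries were above all TRIM24 C52/55A libraries, although the closest pair differed by little. The means were 1.13 ± 0.0413 and 0.953 ± 0.157 FPKM (SD, n = 3 each), with a log2 fold change of -0.13 (SE 0.11, 95% interval -0.38 to 0.11, limma with Benjamini-Hochberg adjusted p = 0.519). The lowest value came from TRIM24 C52/55A replicate 2, the library with adipocyte transcripts, and the log2 fold change was -0.064 without it. It was -0.077 and -0.080 under median-of-ratios and quantile scaling, -0.20 under TPM scaling and -0.24 with a pseudocount of 0.1.

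The intervals listed for *Ncor1* and *Ncoa3* run past the annotated genes. *Ncor1* spans 142 kb on the minus strand in GENCODE M21, against 233 kb in the files, an interval that is also listed for *Ttc19* and *Pigl* on the plus strand and for a pseudogene. As whole gene spans, *Ttc19* overlaps *Ncor1* by 12026 bases and *Pigl* overlaps it by 82. Their mean levels over the 6 libraries were 4.72 and 1.46 FPKM. *Ncoa3* spans 80.6 kb on the plus strand, against 163 kb in the files, an interval that is also listed for *Sulf2*, which lies tail to tail with it on the minus strand and overlaps it by 154 bases. Such sharing holds for 39.5% of all identifiers. *Sulf2*, a sulfatase of heparan sulfate, was named for this position. It had 2.91, 3.39 and 5.05 FPKM in WT and 1.57, 1.02 and 3.8 FPKM in TRIM24 C52/55A liver, with a log2 fold change of -0.69 (SE 0.30, limma with Benjamini-Hochberg adjusted p = 0.220). It was lowest in TRIM24 C52/55A replicate 2, where *Ncoa3* was highest, and highest in WT replicate 3, where *Ncoa3* was lowest. Whether the libraries kept the strand of the RNA is not given in the sources used here, and fragments in the shared bases cannot be told apart without it. *Ppargc1a* and *Ncoa2* shared their intervals only with short gene models of at most 0.0964 FPKM.

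**Figure D4:**
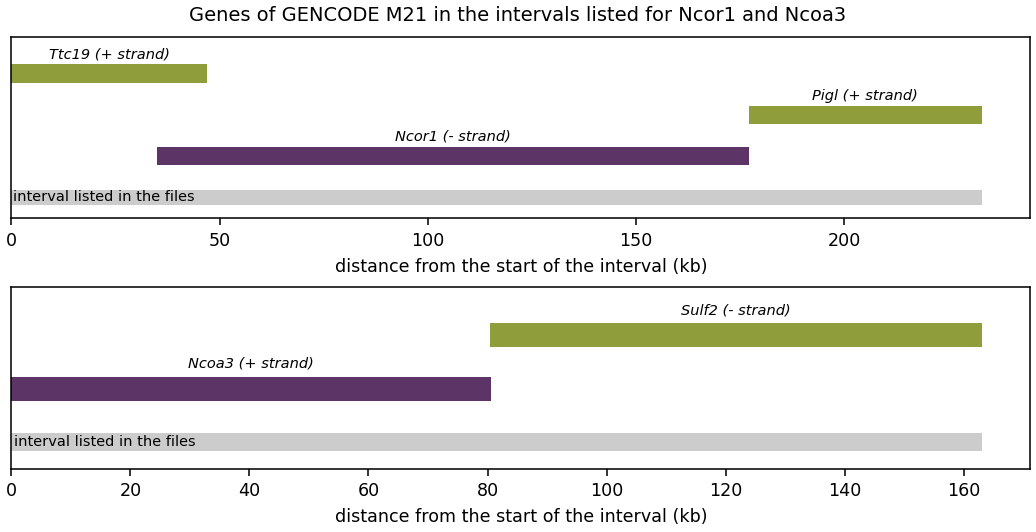
Maps of the intervals that the files list for *Ncor1* (above) and *Ncoa3* (below), in kb from the start of the interval, with the listed interval in grey, the coregulator in purple and the other protein-coding genes of the interval in green. *Ncoa3* fills 80.6 of 163 kb, the rest being *Sulf2*, and *Ncor1* fills 142 of 233 kb.

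Over the 6 libraries the genes whose log2(FPKM + 1) ran most like that of *Ncoa3* were *Myh10* (Pearson r = 0.991), *Cadm4* (r = 0.989) and *Gm3839* (r = 0.988), with n = 6 libraries that include the genotype difference, given as a description. *Cadm4*, a cell adhesion gene, had 1.31, 0.912 and 0.969 FPKM in WT and 2.42, 4.09 and 2.70 FPKM in TRIM24 C52/55A liver and was called (log2 fold change 0.96, limma with Benjamini-Hochberg adjusted p = 0.0136). *Gm3839* was also called, at a log2 fold change of 2.16 (limma with Benjamini-Hochberg adjusted p = 0.00941), and *Myh10*, a non-muscle myosin, was not (0.45, adjusted p = 0.0646). All of them were highest in TRIM24 C52/55A replicate 2.

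The wider coregulator families gave few calls. Of 28 other coactivators tested, among them CBP and p300, the SWI/SNF and the H3K4 methyltransferase subunits, 0 were called by limma (7.72% of all genes), 2 had an unadjusted p under 0.05 (23.6% of all genes), and the median log2 fold change was 0.0047 with a range from -0.61 to 0.44. Both of those 2 were named after their values were seen. *Ep300*, the gene of the acetyltransferase p300, had 2.76, 2.47 and 3.19 FPKM in WT and 5.90, 3.30 and 3.55 FPKM in TRIM24 C52/55A liver, and the remodelling ATPase gene *Smarca4* had a log2 fold change of -0.24 (limma with Benjamini-Hochberg adjusted p = 0.194 and 0.126). The groups of *Ep300* did not overlap, with the first TRIM24 C52/55A library far above the rest. Of the alternatives, only the fit without TRIM24 C52/55A replicate 2 called any, the 1 gene *Kdm6a*. Of 26 other corepressors tested, which include the TBL1 proteins, other deacetylases and TRIM24 itself, 0 were called by limma and 3 had an unadjusted p under 0.05 (*Sin3a*, *Ctbp2* and *Phb2*), beside the same 7.72% and 23.6% of all genes, and the median was 0.06 with a range from -0.33 to 0.23. For all genes the median was -0.07.

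*Trim24*, the gene that carries the substitution, had 5.54, 4.85 and 5.96 FPKM in WT and 6.15, 4.31 and 8.46 FPKM in TRIM24 C52/55A liver. The groups overlapped and the log2 fold change was 0.14 (limma with Benjamini-Hochberg adjusted p = 0.713), or -0.06 without TRIM24 C52/55A replicate 3. A change of codons leaves the FPKM of a gene in place, so that *Trim24* does not check the genotype labels.

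Of 31 other Mediator genes tested, 1 was called higher and 0 lower in TRIM24 C52/55A liver, beside 1.64% and 6.09% of all genes, and the median log2 fold change was -0.04. An unadjusted p under 0.05 was found for 3 of the 31, beside 23.6% of all genes. Besides the call these were *Med21* and *Med22*, both lower and without overlap between the groups, at -0.37 and -0.35 (limma with Benjamini-Hochberg adjusted p = 0.0813 and 0.114). The call was *Med24*, a subunit of the tail module of Mediator. It had 5.48, 4.59 and 4.66 FPKM in WT and 6.60, 7.15 and 6.90 FPKM in TRIM24 C52/55A liver, without overlap. *Med24* rose by 0.42 on the log2 scale (SE 0.10, limma with Benjamini-Hochberg adjusted p = 0.0377). The call was lost with no filter on low values (adjusted p = 0.0769), with the replicate block (adjusted p = 0.108) and with any 1 of the 6 libraries left out (adjusted p 0.0572 to 0.147). *Med24* and *Med1* thus differed in their estimates, 0.42 against -0.03, and the difference between them was not tested.

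The receptors that these coregulators serve gave 4 calls among the 33 that reached the minimum level, of 41 listed, all of them lower in TRIM24 C52/55A liver, a direction called for 6.09% of all genes. The number of calls was 1 to 5 with 1 library left out, 1 with no filter on low values and 2 under quantile scaling. *Pparg*, the lipogenic receptor to which SRC and MED1 bind, had 9.42, 5.55 and 8.39 FPKM in WT and 1.90, 2.27 and 2.71 FPKM in TRIM24 C52/55A liver, well apart. It fell by 1.40 on the log2 scale (SE 0.18, limma with Benjamini-Hochberg adjusted p = 0.00491) and was called in all 15 alternatives. *Nr1i3*, the gene of the xenobiotic receptor CAR, had 120, 101 and 140 FPKM in WT and 76.8, 61.0 and 66.9 FPKM in TRIM24 C52/55A liver. It fell by 0.80 (SE 0.13, limma with Benjamini-Hochberg adjusted p = 0.0127). It was not called without WT replicate 1 (adjusted p = 0.0520) or with no filter on low values (adjusted p = 0.05265).

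*Nr1h2*, which encodes the oxysterol receptor LXRβ, was also among the calls. It had 21.1, 20.04 and 22.7 FPKM in WT and 13.1, 17.1 and 14.8 FPKM in TRIM24 C52/55A liver, without overlap. *Nr1h2* fell by 0.48 on the log2 scale (SE 0.11, limma with Benjamini-Hochberg adjusted p = 0.0342). The call held with TRIM24 C52/55A replicate 2 left out and was lost with any other single library left out (adjusted p 0.0713 to 0.135), with no filter on low values (0.0803) and under quantile scaling (0.0664). *Nr1h2* was called in 7 of the 15 alternatives. Of the other receptors that work with PGC-1α, these 4 were not called: log2 fold changes were -0.29 for *Ppara*, -0.25 for *Esrra*, 0.04 for *Hnf4a* and -0.12 for *Rxra* (limma with Benjamini-Hochberg adjusted p = 0.407, 0.197, 0.798 and 0.472). *Ppara* was at -0.52 without TRIM24 C52/55A replicate 1 (adjusted p = 0.0873) and at -0.15 without TRIM24 C52/55A replicate 2, and *Rxra* at -0.051 without TRIM24 C52/55A replicate 3. *Hnf4a* was at -0.026 under TPM scaling and at 0.14 and 0.19 under median-of-ratios and quantile scaling, and the sign of *Rxra* turned under quantile scaling. *Esrra*, whose product ERRα carries much of the mitochondrial programme of PGC-1, had 11.7, 9.11 and 10.7 FPKM in WT and 8.21, 8.88 and 8.83 FPKM in TRIM24 C52/55A liver, without overlap.

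Neither PGC-1 gene was called, and most of the listed PGC-1 partners and targets had negative fold changes, as did most genes tested. The list was drawn up with earlier results of these data known, and it was not tested as a set. Of 30 tested, 5 were called lower (16.7%, beside 6.09% of all genes in that direction) and 0 higher, 25 had a negative log2 fold change (8005 of the 12225 genes tested did), and the median was -0.23. These genes respond to other factors as well, PPARα among them. Positive values were those of *Nrf1* (0.10), *Gabpa* (0.15), *Tfb1m* (0.03), *Creb1* (0.12) and *Prkaa2* (0.22). Those of *Tfam*, *Foxo1*, *Mef2d*, *Yy1*, *Crtc2*, *Prkaa1* and *Mapk14* lay between -0.10 and -0.01, beside a median of -0.07 for all genes. A lower level is therefore not shown for the partners of PGC-1 as a group. All 5 calls were enzymes or carriers of mitochondria or gluconeogenesis.

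*Ucp2*, a mitochondrial carrier, had 37.4, 34.7 and 35.3 FPKM in WT and 20.9, 26.1 and 22.4 FPKM in TRIM24 C52/55A liver and fell by 0.61 on the log2 scale (SE 0.10, limma with Benjamini-Hochberg adjusted p = 0.0102). *Cpt1a*, which admits fatty acids to mitochondria, had 125, 106 and 130 FPKM in WT and 82.9, 84.0 and 86.7 FPKM in TRIM24 C52/55A liver and fell by 0.50 (SE 0.09, limma with Benjamini-Hochberg adjusted p = 0.0170). Neither gene overlapped between the groups. The gluconeogenic enzyme gene *Fbp1* fell by 0.50, from 764 ± 42.7 to 541 ± 70.2 FPKM (SD, n = 3 each), with a limma Benjamini-Hochberg adjusted p of 0.0266. *Acadm*, of fatty acid β-oxidation, fell by 0.49 and *Sdha*, of the citric acid cycle, by 0.31 (limma with Benjamini-Hochberg adjusted p = 0.0495 and 0.0462). Without WT replicate 1 none of these 5 was called (adjusted p 0.0515 for *Ucp2*, 0.0724 for *Cpt1a*, 0.0970 for *Fbp1*, 0.112 for *Acadm* and 0.134 for *Sdha*). Other single libraries also ended calls when left out, WT replicate 3 and TRIM24 C52/55A replicate 1 for *Cpt1a*, these and WT replicate 2 for *Fbp1*, all but WT replicate 2 for *Acadm* and all but TRIM24 C52/55A replicate 2 for *Sdha* (adjusted p 0.0569 to 0.147). Under median-of-ratios scaling *Fbp1*, *Acadm* and *Sdha* were not called (adjusted p 0.0814, 0.112 and 0.126), and under quantile scaling *Cpt1a*, *Acadm* and *Sdha* were not (0.0615, 0.14 and 0.269), with *Sdha* at -0.15 on the log2 scale and at -0.21 under median-of-ratios scaling. The number of calls among the 30 was 0 to 5 over the fits that left out 1 library, with 10 under TPM scaling and 2 under median-of-ratios or quantile scaling. It was 1 with no filter on low values, 3 with no mean-variance trend and 4 with a pseudocount of 0.1. Of the 15 alternatives, *Ucp2* was called in 14, *Cpt1a* in 10, *Fbp1* in 9, and *Acadm* and *Sdha* in 5 each.

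**Figure D5:**
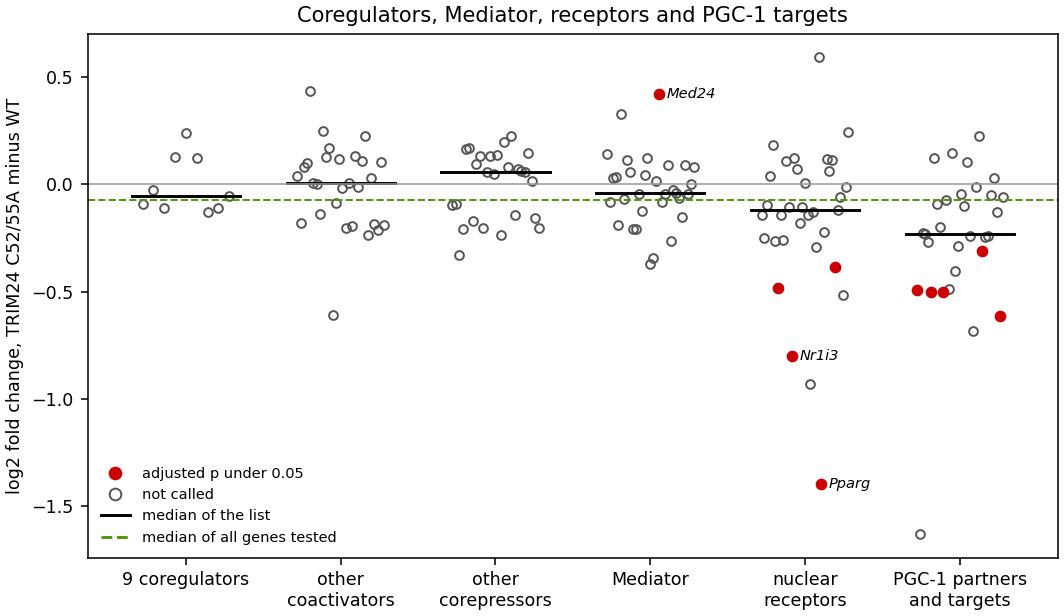
Each point is the log2 fold change, TRIM24 C52/55A minus WT, of 1 tested gene of the 9 coregulators or a related list, filled red where the limma adjusted p was under 0.05, with a black bar for the median of each list and a dashed line for the median of all genes. The coregulators and the coactivator and corepressor lists hold no red point, Mediator holds 1 (*Med24*), the receptors 4 and the PGC-1 partners and targets 5, the last with a median of -0.23.

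The libraries were alike in depth, with relative depths of 0.962 to 1.03, read from the steps between low FPKM values, and 17709 to 17984 genes above 0 per library. Over all genes, 944 were called, 200 higher and 744 lower in TRIM24 C52/55A liver (249 and 410 under median-of-ratios scaling, 255 and 378 under quantile scaling, 193 and 1295 under TPM scaling). Hepatocyte markers were present, with 7 of 8 above 0 in every library and *Alb* not analysed here, and their summed level was 21530 to 22230 FPKM in WT and 21780 to 24570 FPKM in TRIM24 C52/55A liver. Among them *Cps1*, the gene of a urea cycle enzyme, was called higher, from 321 to 498 FPKM (limma with Benjamini-Hochberg adjusted p = 0.0281). Summed levels of Kupffer cell markers (155 to 204 and 135 to 182 FPKM) and of endothelial, stellate cell and cholangiocyte markers overlapped between the genotypes, although the endothelial marker *Lyve1*, a small part of its sum, was called lower, from 6.21 ± 1.89 to 2.07 ± 0.973 FPKM (SD, n = 3 each, limma with Benjamini-Hochberg adjusted p = 0.0281). Those of the 6 lymphocyte markers did not, at 3.45 to 4.82 FPKM in WT and 2.88 to 3.15 FPKM in TRIM24 C52/55A liver, and their part in the coregulator values was not tested. The 6 adipocyte markers summed to 28.4 FPKM in TRIM24 C52/55A replicate 2 and to 5.25 to 11.4 FPKM elsewhere. *Adrb3* of that list was called higher (limma with Benjamini-Hochberg adjusted p = 0.000716).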

How the data were processed

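The authors sequenced liver RNA with Illumina libraries and deposited 1 table of FPKM per mouse, with a gene identifier, name and interval (GRCm38). The submitters' processing notes name bcl2fastq, Salmon 0.14.0 and DESeq2 1.30.0, without saying which of them made the FPKM. Groups and replicate numbers come from the sample labels. The 9 genes, the lists and the tests were chosen with earlier results of these data known.

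The 12225 genes that averaged 0.5 FPKM or more were compared on the log2(FPKM + 1) scale. limma 3.58.1 (R 4.3.3) was used with a trended prior variance, and p-values were adjusted over all these genes by Benjamini-Hochberg. A fold change on this scale understates that of low genes. Single values had an exact two-sided permutation test. The procedure was first tested on simulated data. Genes were named by a rule: the 9 members, *Trim24*, *Pparg*, the called genes of each list (at most 5), *Ppara*, *Esrra*, *Hnf4a*, *Rxra*, and the 3 genes most correlated with the member of largest change. *Alas1*, *Pck1*, *Sulf2*, *Ttc19*, *Pigl*, the marker genes and the few genes behind a small count were added outside it.

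FPKM keep no total, and depth was inferred from the steps between low values (1 fragment per kb was worth 0.0597 to 0.0640 FPKM). Starts in the files count from 0 and were raised by 1: 13959 of 21454 identifiers then had the start of GENCODE M21. No library repeated another. In all, 15 other ways of processing were tried (pseudocount, filter, scaling, trend, replicate block and each library left out), and ratios within libraries were also taken with each library left out, a choice made after seeing the data. A planned description of receptor-binding motifs in the proteins was not made, and no sequence was used. Of the called receptors, 1 is counted but not reported here.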

Additional observations from a re-analysis of the deposited data

How the results depend on the processing

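No coregulator was called under any of the 15 alternatives, and of 134 values of the 9 genes 125 kept their sign and 9 reversed. Reversed log2 fold changes were those of *Ppargc1a* (0.0071 when WT replicate 3 was omitted and 0.034 when TRIM24 C52/55A replicate 1 was, range -0.27 to 0.034 over the left-out libraries), *Ppargc1b* (0.016 without TRIM24 C52/55A replicate 3, range -0.12 to 0.016), *Med1* (0.054 under median-of-ratios and 0.035 under quantile scaling, 0.013 when WT replicate 3 was omitted and 0.048 when TRIM24 C52/55A replicate 2 was, range -0.10 to 0.048), *Hdac3* (0.0047 and 0.027 under median-of-ratios and quantile scaling), *Trim24* (-0.061 without TRIM24 C52/55A replicate 3, range -0.061 to 0.35), *Hnf4a* (-0.026 under TPM scaling) and *Rxra* (0.039 under quantile scaling). The other 5 kept their sign, at 0.19 to 0.32 for *Ncoa3*, 0.048 to 0.23 for *Ncor1*, 0.086 to 0.21 for *Ncoa2*, -0.17 to -0.040 for *Ncoa1* and -0.24 to -0.064 for *Nrip1*. The log2 ratio of *Ppargc1a* to *Ppargc1b* changed its sign without WT replicate 3 or TRIM24 C52/55A replicate 1 or 2 (-0.60 to 0.32). *Ppargc1b* had no value with a minimum of 1 FPKM. The median over all genes was -0.07 as reported, -0.13 under TPM scaling and 0.01 under median-of-ratios or quantile scaling. The 944 calls became 347 with no filter (95 higher, 252 lower), 1488 under TPM scaling (1295 lower) and 294 to 1280 with 1 library left out (88 to 239 higher, 202 to 1041 lower), and the 744 lower calls became 410 under median-of-ratios and 378 under quantile scaling. Calls among the lists were, for other coactivators, 0 to 1 with 1 library left out. Mediator had 0 with no filter, 2 under TPM scaling (*Med24* higher and *Med21* lower) and 0 to 0 with 1 library left out. Receptors had 1 with no filter, 2 under quantile scaling and 1 to 5 with 1 library left out, and PGC-1 partners and targets 1 with no filter, 10 under TPM scaling, 2 under median-of-ratios or quantile scaling, 3 with no mean-variance trend and 0 to 5 with 1 library left out. The causes were not tested. Equal replicate numbers mark different animals, and the correlations of the deviations of same-numbered libraries (-0.12, -0.10 and 0.00) gave no pairing. With the replicate block 578 genes were called (422 lower), 0 Mediator genes and 2 receptors, *Ncoa3* had an adjusted p of 0.302 (limma, Benjamini-Hochberg) and no coregulator was called. With 3 mice a group and few fragments for *Ppargc1b*, small differences cannot be seen.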
